A study of Mus musculus with 11 samples.

Results

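The genes studied here encode the enzymes that write and erase DNA methylation and histone marks, and the measurement was the accessibility of the chromatin around them, by ATAC-seq, in 4 subsets of mouse CD4 T cells. A peak was taken as a member when its centre lay nearest to a RefSeq transcription start site (GRCm38) of a gene named Dnmt, Tet, Hdac, Kdm, Kmt, Setd or Kat with a number, or of Ezh1, Ezh2, Eed, Suz12, Ep300, Crebbp, Dot1l, Ehmt1 or Ehmt2. This rule gave 219 of the 38509 consensus peaks, at 66 of the 70 genes with such a symbol. Dnmt3l, Hdac9, Kdm5a and Kdm5d had no peak of their own. The symbol rule also took in Dnmt3aos, a non-coding RNA antisense to Dnmt3a, with 4 peaks that all lie within the Dnmt3a gene. Of the 219 peaks, 71 were promoter peaks, with the centre at most 1000 bases from a start site, and 148 were distal. Distal peaks are named below by the distance from their centre to the nearest start site of the gene, along the gene's own strand, and 26 members lay more than 50 kb away. Nearest distance does not show which gene a peak acts on, and 14 members lay inside another gene only.

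All cells came from wildtype C57BL/6 mice with a Foxp3-GFP reporter and a polyclonal T cell repertoire, and were taken fresh, with no treatment, from mixed spleen and lymph nodes. No age is given in the labels. Naive cells (2 libraries) were CD44low. Effector cells, Teff (3 libraries), were CD44high, FOXP3–, CD73low and FR4low. Anergic cells (3 libraries) were CD44high, FOXP3–, CD73high, FR4high and NRP1+, and regulatory cells, Treg (3 libraries), were FOXP3+ CD25+. Anergic T cells are antigen-experienced cells that have become unresponsive, and CD73 with FR4 marks them among FOXP3– cells. The labels do not say that the libraries of a group come from separate mice, so p-values measure only the spread between these libraries.

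DNA methyltransferases place methyl groups on cytosine, and TET dioxygenases oxidise them as the first step of their removal. Histone acetyltransferases and deacetylases set and remove acetyl groups, which mark open chromatin. Lysine methyltransferases of the Kmt, Setd and Dot1l types and the Polycomb complex PRC2 (Ezh1 or Ezh2 with Eed and Suz12) methylate histones, and Kdm demethylases reverse this. In T cells, demethylation of the Foxp3 locus by TET enzymes stabilises Treg identity, and Ezh2 restrains effector genes.

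The DNA of 5 member peaks is given first, because each stands for one of the patterns described below. The Tet2 peak was open in anergic and Treg cells, the Kat6b peak mainly in anergic cells, the Ezh2 peak in all 3 antigen-experienced subsets with the highest signal in anergic cells, the Kdm7a peak mainly in Teff cells and the Tet1 peak mainly in naive cells. Each run is the plus strand of the reference genome (GRCm38.p6, mm10 coordinates), limited to the central 300 bases of longer peaks. Capitals mark the letters TGANTCA, a core that AP-1 factors bind, and TGTGGT, a core that RUNX factors bind, on either strand.
Tet2, chr3:133437005-133437304, 107 kb downstream of the start site and outside the gene: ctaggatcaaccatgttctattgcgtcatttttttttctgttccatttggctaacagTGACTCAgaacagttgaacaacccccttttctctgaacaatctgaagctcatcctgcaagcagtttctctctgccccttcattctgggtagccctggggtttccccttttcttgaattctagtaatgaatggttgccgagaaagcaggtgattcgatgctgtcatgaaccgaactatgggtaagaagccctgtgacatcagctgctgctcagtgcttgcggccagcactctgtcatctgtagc
Kat6b, chr14:21507117-21507416, intron: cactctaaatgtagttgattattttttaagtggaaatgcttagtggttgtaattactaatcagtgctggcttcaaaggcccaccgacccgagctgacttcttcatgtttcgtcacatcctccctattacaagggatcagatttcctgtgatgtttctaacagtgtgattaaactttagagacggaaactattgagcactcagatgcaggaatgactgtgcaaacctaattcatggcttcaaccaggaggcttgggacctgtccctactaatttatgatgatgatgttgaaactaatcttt
Ezh2, chr6:47559921-47560220, intron: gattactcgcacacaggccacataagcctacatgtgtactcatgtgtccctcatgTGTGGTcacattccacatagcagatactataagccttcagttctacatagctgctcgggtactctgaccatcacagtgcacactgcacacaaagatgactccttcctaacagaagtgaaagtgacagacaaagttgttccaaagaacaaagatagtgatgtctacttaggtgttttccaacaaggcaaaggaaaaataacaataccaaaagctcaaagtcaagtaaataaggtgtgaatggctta
Kdm7a, chr6:39218061-39218360, 11.4 kb upstream: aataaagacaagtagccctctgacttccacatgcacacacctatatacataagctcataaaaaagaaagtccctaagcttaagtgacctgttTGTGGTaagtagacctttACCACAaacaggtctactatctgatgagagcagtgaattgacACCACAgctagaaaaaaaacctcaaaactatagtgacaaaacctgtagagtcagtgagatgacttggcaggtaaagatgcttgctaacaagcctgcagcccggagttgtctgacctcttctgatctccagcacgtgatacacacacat
Tet1, chr10:62840796-62840961, intron: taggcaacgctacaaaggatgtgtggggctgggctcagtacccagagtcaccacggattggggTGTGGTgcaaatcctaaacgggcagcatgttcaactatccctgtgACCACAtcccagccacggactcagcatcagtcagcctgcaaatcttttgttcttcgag
Among these 5 runs, the AP-1 letters occur in the Tet2 peak (1 match), and the RUNX letters in the Kdm7a (3 matches), Tet1 (2) and Ezh2 (1) peaks. The Kat6b run holds neither.

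Values are the deposited signal, that is, reads per peak after a scaling of each library by the authors, and each library held 14668425 to 68818591 recovered reads in peaks, with 14668425 to 29740722 in the Treg libraries. The members took 0.908% to 0.961% of all signal in each library, and 78.2% to 82.9% of the members' signal came from promoter peaks. The Foxp3 peak set Treg cells apart, with a mean of 11.6 in naive, 31.1 in Teff, 131 in anergic and 1331 in Treg cells. The 7 sort marker genes had 49 peaks. Of these, 16 were higher and 7 lower in anergic than in Teff cells (46.9%, against 32.8% of all peaks). At Nt5e, the CD73 gene, the peak nearest to the start site averaged 438 in naive, 931 in Teff, 1409 in anergic and 1154 in Treg cells. The one 29.7 kb away averaged 160, 191, 88.6 and 206. T cell genes had peaks throughout (4 of 5 listed genes, summed signal 16221 to 18682 per library), whereas Ms4a1, Cd79a and Pax5 of the B cell list, Lyz2 and Csf1r of the myeloid list, Cd8a, and Gata1, Hbb-bs and Hba-a1 of the erythroid list had no peak. Other genes of these lists did: 4 of 9 B cell, 5 of 9 myeloid and dendritic, 5 of 8 CD8, NK and innate-like and 3 of 7 erythroid and platelet genes. The summed myeloid and dendritic signal was 1848 to 2081 in naive, 2822 to 3565 in Teff, 4496 to 4740 in anergic and 3051 to 3419 in Treg libraries. Of the 14 peaks of this list, 1 was higher and 2 were lower in anergic than in Teff cells (21.4%, against 32.8% of all peaks). Its Cebpa promoter peak averaged 125 in naive, 623 in Teff, 2273 in anergic and 637 in Treg cells. Its Batf3 peak 4.46 kb from the start site went the other way, with 7.14, 215, 87.6 and 72.5 in the same order. The summed B cell list signal was 1181 to 1209 in naive, 922 to 1076 in Teff, 1387 to 1666 in anergic and 2039 to 2307 in Treg libraries, with a Cd74 promoter peak at 284, 334, 833 and 1160 on average. The erythroid and platelet sum was 4107 to 4232 in naive, 3597 to 3850 in Teff, 4469 to 4849 in anergic and 3201 to 3394 in Treg libraries. Its genes differed in course. The Itga2b peak at 2.56 kb averaged 1182 in naive, 1089 in Teff, 2093 in anergic and 1234 in Treg cells. The Klf1 peak averaged 2739, 2253, 2007 and 1760. Of the 6 peaks of this list, 4 were higher and 1 was lower in anergic than in naive cells. The Cd8b1 promoter peak averaged 1133 in naive, 199 in Teff, 197 in anergic and 696 in Treg cells. Of the list for CD8, NK and innate-like T cells, 18 of 28 peaks were lower in anergic than in Teff cells, among them peaks at Zbtb16, the gene for PLZF. The Zbtb16 peak 31.8 kb from the start site averaged 46 in naive, 1223 in Teff, 157 in anergic and 64.3 in Treg libraries. The summed signal of that list was 23939 to 24419 in naive, 25455 to 29557 in Teff, 20988 to 26477 in anergic and 19545 to 24962 in Treg libraries. The part of these lists in the peaks described below as high in Teff, anergic, naive or Treg cells was not tested. In such bulk libraries, a larger share of cells with a site open and a more open site in each cell cannot be told apart.

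The chromatin around these enzyme genes differed among the subsets at many distal sites and at fewer promoters. Changes of over 4-fold occurred at peaks of many genes, Tet2, Hdac2, Kdm7a, Ezh2, Kat6b, Kmt2a, Hdac4, Kdm1a, Kdm6a, Kdm2b and Tet1 among them. Differences are given as log2 fold changes of signal + 1, with the standard error of the fit. Between anergic and Teff cells, 69 of the 219 members passed an adjusted p of 0.05 (limma, adjusted over the 38493 peaks tested), 39 higher and 30 lower in anergic cells. This is 31.5% of the members, against 32.8% of all peaks, of which 15.9% were higher and 16.8% lower. Between anergic and naive cells, 108 members passed, 53 higher and 55 lower, which is 49.3% against 50.5% of all peaks (25.3% higher, 25.1% lower). In both comparisons the members' share was near that of all peaks. Every member passed the filter on low values.

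Anergic and Treg cells differed at 61 members, 36 higher and 25 lower in anergic cells (27.9%, against 34.1% of all peaks, 19.4% higher and 14.8% lower). Treg and Teff cells differed at 51 members, 27 higher and 24 lower in Treg cells (23.3%, against 32.6% of all peaks, 14.4% higher and 18.2% lower). Treg and naive cells differed at 103 members, 46 higher and 57 lower (47%, against 45.3% of all peaks, 22.3% higher and 23% lower). Directions in these 3 comparisons moved with the scaling. With equal total reads in peaks for every library, the splits were 28 higher and 35 lower for anergic against Treg, 32 and 16 for Treg against Teff, and 58 and 32 for Treg against naive, and the median of all peaks moved from 0.04 to -0.09, from -0.02 to 0.08 and from -0.04 to 0.12 (log2).

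Teff and naive cells differed at 87 members, 45 higher and 42 lower in Teff cells (39.7%, against 40.1% of all peaks, 22.7% higher and 17.4% lower). Without naive replicate 1 this count was 56, with 18 lower, and without naive replicate 2 it was 66, with 25 lower. The lower members were also fewer without single libraries in the other comparisons, by over 1.5 times: 36 in anergic against naive without naive replicate 1, 33 and 34 in Treg against naive without naive replicate 2 and naive replicate 1, 18 in anergic against Teff without Teff replicate 2, 16 in anergic against Treg without anergic replicate 3, and 14 in Treg against Teff without Teff replicate 2. Across all 4 subsets, 132 members varied by the moderated F-test of limma (60.3%, against 66% of all peaks).

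Fewer promoter than distal members passed, as over all peaks. Of 71 promoter members, 10 (14.1%) differed between anergic and Teff cells, against 16% of all promoter peaks. None of the 10 reached a 2-fold change, against 4% of all promoter peaks that passed with one. Of 148 distal members, 59 (39.9%) differed, against 41.1% of all distal peaks. Of these, 37 differed by 2-fold or more, which is 25% of the 148, against 24.5% of all distal peaks. Between anergic and naive cells, 22 promoter members (31%) and 86 distal members (58.1%) differed, against 31.9% of all promoter and 59.8% of all distal peaks. Of these members, 4 promoter peaks (5.63% of 71) and 58 distal peaks (39.2% of 148) reached a 2-fold change, against 10.3% and 42.6% over all peaks. The base composition differs between the classes as it does genome-wide: the central 300 bases held a median of 69.3% G and C and 28 CpG in promoter members and 49.7% and 4 in distal members.

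**Figure D1:**
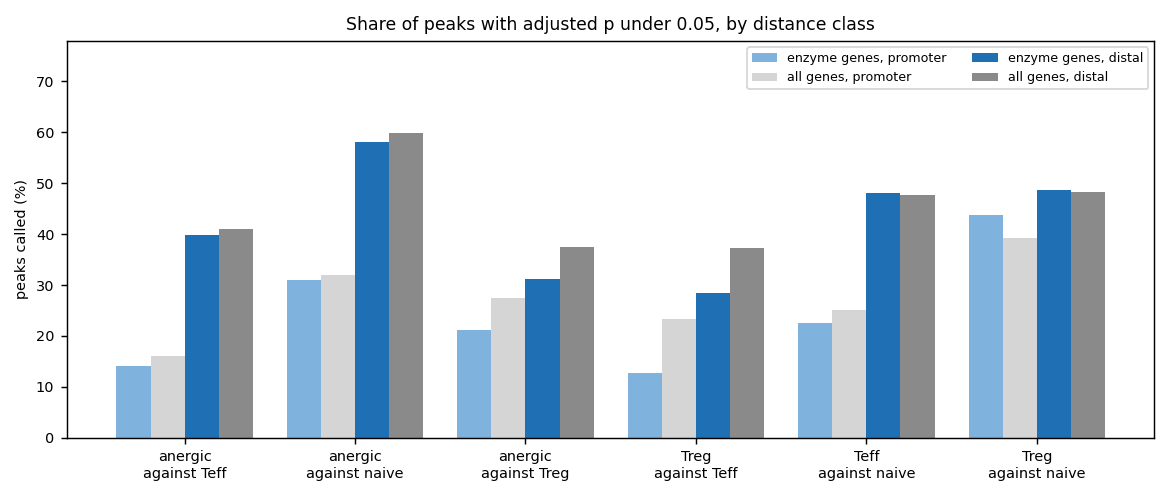
Share of peaks (%) with an adjusted p under 0.05 in each of the 6 comparisons, for promoter and distal peaks of the enzyme genes (71 and 148 peaks) and of all genes. In every comparison shown the distal bar of the enzyme genes is higher than their promoter bar, from 39.9% against 14.1% between anergic and Teff cells to 48.6% against 43.7% between Treg and naive cells.

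**Figure D2:**
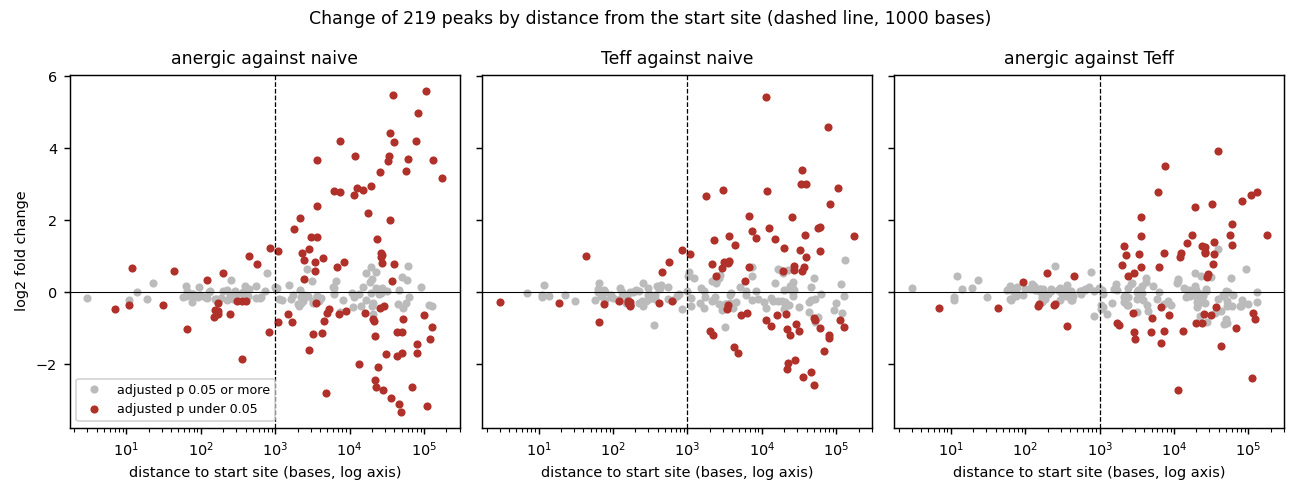
Log2 fold change of signal + 1 at the 219 peaks (vertical axis) by distance from the nearest start site in bases (log axis), for 3 comparisons. Each point is 1 peak, red where the adjusted p was under 0.05, and the largest changes on this scale, up to 5.60 between anergic and naive cells, lie to the right of the dashed line at 1000 bases.

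Among the DNA methyltransferases, 4 genes including Dnmt3aos had 19 peaks, with 2 higher and 4 lower in anergic than in Teff cells (31.6%, against 32.8% of all peaks) and 4 higher and 7 lower than in naive cells (57.9%, against 50.5%). Dnmt1, which copies methylation at replication, had a promoter peak (chr9:20952152-20953433, 5' UTR) that was highest in naive cells. At this promoter the signal was 5757 and 5798 in naive, 4415, 4476 and 4247 in Teff, 3893, 3959 and 4165 in anergic and 3733, 3708 and 4226 in Treg libraries. The naive libraries lay above all 9 others. The log2 fold change against naive cells was -0.53 ± 0.10 (SE, adjusted p = 7.37e-05) for anergic, -0.40 ± 0.10 (SE, adjusted p = 0.00193) for Teff and -0.57 ± 0.10 (SE, adjusted p = 4.53e-05) for Treg cells. A second Dnmt1 peak, 1.8 kb upstream of a start site (chr9:20961497-20961889), went the other way and was highest in Teff cells. There the signal was 65.8 and 43.4 in naive, 422, 312 and 305 in Teff, 182, 188 and 175 in anergic and 157, 153 and 161 in Treg libraries. No group overlapped Teff, and the naive libraries were lowest. Teff exceeded naive cells by 2.66 ± 0.23 (SE, adjusted p = 6.31e-09), and anergic cells were below Teff (log2 fold change -0.91 ± 0.21, SE, adjusted p = 0.00144).

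Dnmt3a, a de novo methyltransferase, had 10 peaks, of which 1 was higher and 3 were lower in anergic than in naive cells. Without naive replicate 1 the lower count was 1. Its main promoter peak (chr12:3806087-3808364) averaged 2653 ± 513 (SD, n = 2) in naive, 3114 ± 232 (SD, n = 3) in Teff, 2676 ± 103 (SD, n = 3) in anergic and 2929 ± 185 (SD, n = 3) in Treg cells, and passed the test in none of the 6 comparisons. The peak at an internal start site, 151 bases upstream of it within an intron, was lowest in anergic cells. It measured 889 and 1028 in naive, 708, 823 and 818 in Teff, 612, 547 and 619 in anergic and 834, 1009 and 786 in Treg libraries. The anergic libraries lay below all others. Anergic cells differed from naive cells (log2 fold change -0.69 ± 0.15, SE, adjusted p = 0.000413) and from Treg cells (log2 fold change -0.56 ± 0.13, SE, adjusted p = 0.00239). An intronic peak 27.4 kb into the gene (chr12:3834208-3834926) rose in every antigen-experienced subset, by 1.03 ± 0.15 (SE, adjusted p = 3.55e-06) in anergic, 0.60 ± 0.15 (SE, adjusted p = 0.00211) in Teff and 0.99 ± 0.15 (SE, adjusted p = 1.04e-05) in Treg cells against naive cells. A neighbouring peak inside Dnmt3a, assigned to the antisense RNA Dnmt3aos (chr12:3835606-3835946), was highest in anergic cells. Its signal was 181 and 229 in naive, 157, 206 and 257 in Teff, 448, 474 and 393 in anergic and 261, 245 and 299 in Treg libraries. The anergic libraries did not overlap the rest, and the log2 fold change was 1.11 ± 0.19 (SE, adjusted p = 7.97e-05) against Teff and 0.71 ± 0.19 (SE, adjusted p = 0.00605) against Treg cells. The peak 51.2 kb upstream, in an intron of Dtnb, was lower in anergic than in Treg cells (log2 fold change -1.78 ± 0.41, SE, adjusted p = 0.00216), and its log2 fold change was -1.14 without anergic replicate 1.

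Dnmt3b, the other de novo enzyme, had its promoter peak (chr2:153649296-153650097, 5' UTR) at 804 ± 24.2 (SD, n = 2) in naive and 531 ± 24.7 (SD, n = 3) in anergic cells, a log2 fold change of -0.60 ± 0.15 (SE, adjusted p = 0.00218). By library the signal was 786 and 821 in naive, 594, 657 and 813 in Teff, 522, 512 and 559 in anergic and 589, 543 and 528 in Treg libraries. The anergic libraries were below both naive ones.

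The TET dioxygenases showed a different course for each gene. Tet2 had 5 peaks and all 5 were higher in anergic than in naive cells, 4 higher than in Teff and 3 higher than in Treg cells, with none lower. Tet1 had 4 peaks, all intronic, and all 4 were lower in anergic, in Teff and in Treg cells than in naive cells. Tet3 had 9 peaks, 1 higher and 6 lower in anergic than in naive cells, and the lower count was 4 without naive replicate 2. Together the 18 TET peaks included 16 that passed between anergic and naive cells, 6 higher and 10 lower (88.9%, against 50.5% of all peaks), and 9 that passed between anergic and Teff cells (50%, against 32.8%). Only 3 of the 18 were promoter peaks, and over all distal peaks these shares were 59.8% and 41.1%. The TET share was 72.2% for Teff against naive (40.1% of all peaks), 61.1% for Treg against naive (45.3%) and 44.4% for anergic against Treg (34.1%). For Treg against Teff it was below that of all peaks (16.7%, against 32.6%).

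The Tet2 peak with the largest fitted change of any member on the log2(signal + 1) scale lay 107 kb past the start site, outside the gene (chr3:133436940-133437369; its centre is the first sequence above). Its signal was 7.31 and 8.52 in naive, 56.8, 53.7 and 90 in Teff, 511, 479 and 326 in anergic and 404, 413 and 474 in Treg libraries. The naive libraries held 9 and 11 reads there. Anergic and Treg libraries overlapped each other and lay above all Teff libraries, which lay above naive. Anergic cells exceeded naive cells by 5.60 ± 0.27 (SE, adjusted p = 2.65e-13) and Teff cells by 2.71 ± 0.24 (SE, adjusted p = 2.84e-08), and Treg cells exceeded Teff cells by 2.70 ± 0.24 (SE, adjusted p = 3.7e-08). The difference between anergic and Treg cells was 0.00 ± 0.24 (SE, adjusted p = 0.993), with a mean of 438 ± 98.8 (SD, n = 3) against 430 ± 37.7 (SD, n = 3).

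The Tet2 peaks at 19.4 and 82.4 kb upstream of the gene were higher in anergic cells than in each other group. At 19.4 kb upstream (chr3:133563478-133564124), the signal was 175 and 129 in naive, 213, 215 and 257 in Teff, 1310, 1231 and 1007 in anergic and 226, 253 and 134 in Treg libraries. All 3 anergic libraries stood above every other library, and the Treg libraries overlapped those of naive and Teff cells. Anergic cells exceeded Teff cells by 2.37 ± 0.21 (SE, adjusted p = 1.74e-08), Treg cells by 2.57 ± 0.21 (SE, adjusted p = 1.08e-08) and naive cells by 2.96 ± 0.23 (SE, adjusted p = 4.57e-10). At 82.4 kb upstream (chr3:133626605-133626879), the values were 4.06 and 3.87 in naive, 24.9, 42.1 and 16.7 in Teff, 181, 152 and 137 in anergic and 41.7, 21.3 and 16.5 in Treg libraries. Each naive library held 5 reads. The anergic libraries again did not overlap any other group, with a log2 fold change of 2.53 ± 0.46 (SE, adjusted p = 0.000169) against Teff and 2.62 ± 0.46 (SE, adjusted p = 0.000166) against Treg cells. The small peak 38.9 kb upstream rested on 6 reads and 1 read in the naive libraries. There the ratio of anergic to naive reads, after the authors' scaling of each library, was 20.4 (95% interval 9.75 to 51.4, exact conditional binomial, counting error only). The ratio to naive reads was 8.74 (4.05 to 22.5) for Teff and 12.2 (5.65 to 31.5) for Treg cells, and the difference between anergic and Treg cells did not pass (log2 fold change 0.71 ± 0.52, SE, adjusted p = 0.307).

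The Tet2 promoter peak (chr3:133543873-133545301) moved far less than the distal ones. There the libraries measured 2627 and 2707 in naive, 2880, 2654 and 2560 in Teff, 3716, 3908 and 4015 in anergic and 2881, 2518 and 3407 in Treg libraries. The anergic libraries were above all others, and the log2 fold change was 0.52 ± 0.10 (SE, adjusted p = 4e-04) against Teff, 0.54 ± 0.12 (SE, adjusted p = 0.000484) against naive and 0.41 ± 0.10 (SE, adjusted p = 0.00411) against Treg cells. With equal total reads the difference from Treg cells was 0.28. It was 1 of the 3 promoter members that were higher in anergic than in Teff cells.

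At Tet1, the intronic peak 28.1 kb from the start site (chr10:62859042-62859350) was highest in naive cells. Its signal was 231 and 210 in naive, 40.2, 56.2 and 91.7 in Teff, 24.9, 41.1 and 33.6 in anergic and 80, 61.7 and 108 in Treg libraries. Both naive libraries lay above every other library. Against naive cells the log2 fold change was -2.72 ± 0.37 (SE, adjusted p = 1.83e-06) in anergic, -1.88 ± 0.37 (SE, adjusted p = 0.000291) in Teff and -1.43 ± 0.37 (SE, adjusted p = 0.00306) in Treg cells. Anergic cells were also below Treg cells (log2 fold change -1.29 ± 0.33, SE, adjusted p = 0.00437). The peak 46.4 kb into the gene, printed above, had a log2 fold change of -3.15 ± 0.67 (SE, adjusted p = 0.000629) in Treg against naive cells, with 3, 8 and 24 reads in the Treg libraries. Its difference between Teff and naive cells, -2.22 ± 0.67 (SE, adjusted p = 0.0114), missed the threshold without naive replicate 1 (adjusted p = 0.0788) and without naive replicate 2 (adjusted p = 0.0712). The peak nearest to the start, at 21.9 kb (chr10:62865214-62865681), had the highest signal of the 4, 394 ± 2.22 (SD, n = 2) in naive cells against 170 ± 9.16 (SD, n = 3) in anergic cells. No Tet1 peak lay within 1000 bases of a start site.

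The main Tet3 promoter peak (chr6:83455434-83457337, 5' UTR) was lower in anergic cells than in Teff cells (log2 fold change -0.43 ± 0.11, SE, adjusted p = 0.00294). Per library it measured 3316 and 3819 in naive, 3455, 3813 and 3184 in Teff, 2424, 2497 and 2839 in anergic and 3581, 2884 and 3205 in Treg libraries. All 3 anergic libraries lay below all others. Against naive cells the log2 fold change was -0.46 ± 0.12 (SE, adjusted p = 0.0023), and without naive replicate 2 the adjusted p was 0.0614. A second Tet3 promoter peak, 394 bases into the gene, averaged 1859 in Teff, 1870 in anergic and 1857 in Treg cells and passed no test. Of the distal Tet3 peaks, that at 13.2 kb (intron) was lower in anergic cells, 56.1 ± 13 (SD, n = 3) against 157 ± 49 (SD, n = 3) in Treg and 226 ± 17.5 (SD, n = 2) in naive cells, with log2 fold changes of -1.45 ± 0.26 (SE, adjusted p = 0.000201) and -2.01 ± 0.29 (SE, adjusted p = 4.51e-06). The one at 17.5 kb was higher in anergic than in Teff cells, by 1.59 ± 0.35 (SE, adjusted p = 0.00112), and the one 22.4 kb upstream was highest in naive cells, 168 ± 31.3 (SD, n = 2), against 26.3 to 42.9 on average elsewhere.

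**Figure D3:**
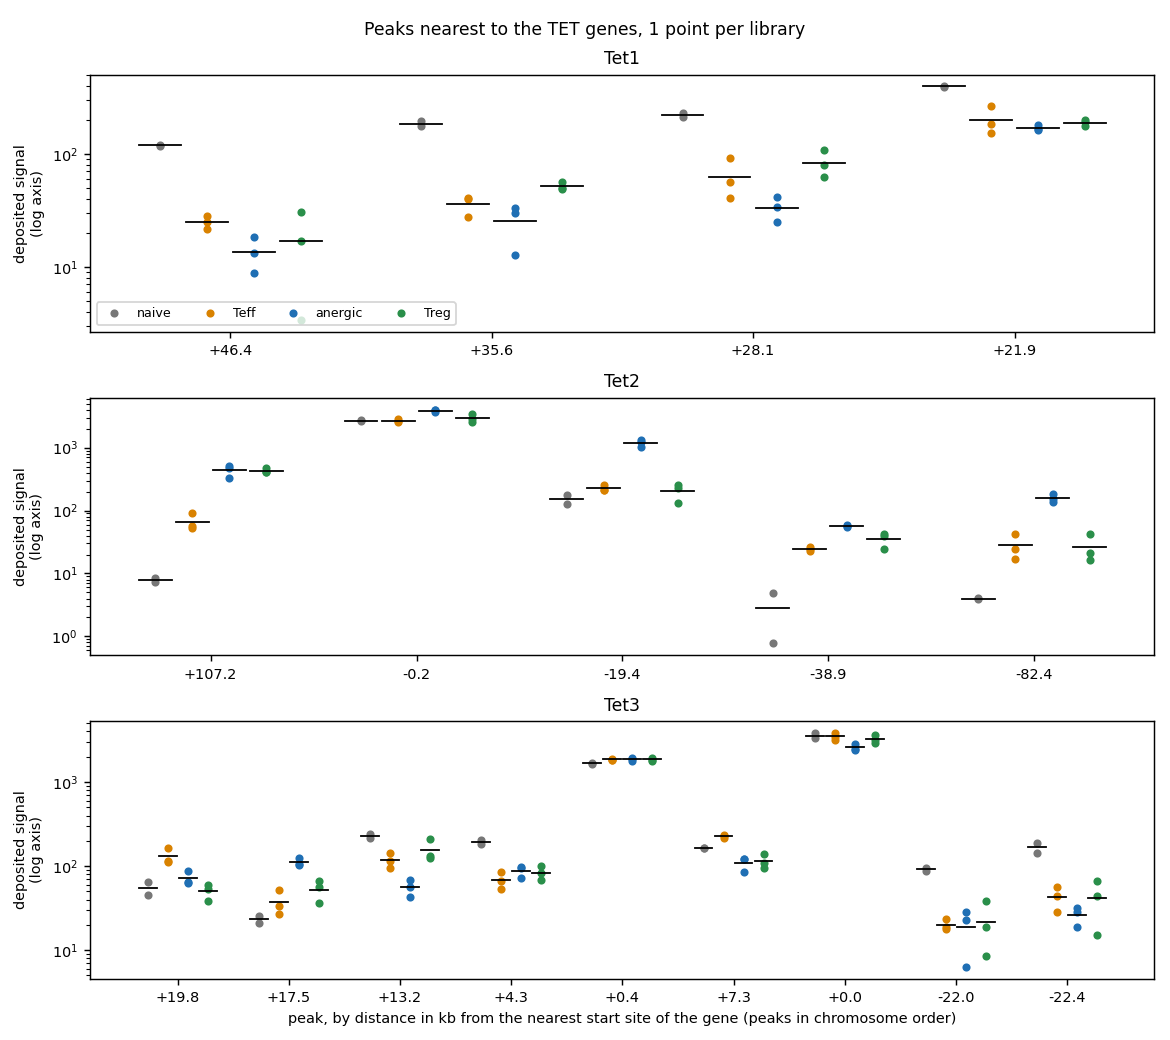
Deposited signal (log axis) at every peak nearest to Tet1, Tet2 and Tet3, with 1 point per library and a bar at the group mean; peaks are labelled by distance from the start site in kb. All 4 Tet1 peaks are highest in naive cells, and the Tet2 peaks at 19.4 and 82.4 kb upstream are highest in anergic cells.

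Among the histone deacetylases, at most 2 of 5 class I promoter peaks passed in any comparison. Class IIa genes had many distal peaks that went both ways, and Hdac11 was most open in Teff cells. The 4 class I genes had 7 peaks, 1 higher and 1 lower in anergic than in Teff cells and 1 higher and 1 lower than in naive cells (28.6% in each, against 32.8% and 50.5% of all peaks). The 3 class IIa genes had 23 peaks, of which 5 rose and 6 fell in anergic cells against Teff cells (47.8%), and 2 rose and 10 fell against naive cells (52.2%). Of 6 peaks at Hdac6, Hdac10 and Hdac11, none was higher and 3 were lower in anergic than in Teff cells (50%). Hdac2, a class I enzyme of the Sin3 and NuRD complexes, had a promoter peak of 3771 ± 12.8 (SD, n = 2) in naive, 2933 ± 305 (SD, n = 3) in Teff, 3101 ± 416 (SD, n = 3) in anergic and 2746 ± 70 (SD, n = 3) in Treg cells. This promoter peak passed as lower than in naive cells in anergic, Teff and Treg cells. The anergic difference missed the threshold with DESeq2 (log2 fold change -0.25, adjusted p = 0.0652). A small peak 38.5 kb upstream (chr10:36935952-36936218) was nearly closed in naive cells. Its signal was 4.06 and 1.55 in naive, 4.85, 9.08 and 20 in Teff, 134, 165 and 186 in anergic and 87.8, 83 and 104 in Treg libraries. Anergic and Treg libraries all lay above the Teff and naive libraries, and the naive libraries held 5 and 2 reads. The ratio of anergic to naive reads, after the authors' scaling of each library, was 60.6 (95% interval 29.3 to 151, exact conditional binomial, counting error only). The ratio of mean anergic to naive signal at the Tet2 peak 107 kb past its start site lies below 60.6 and inside this interval. Anergic cells exceeded Teff cells by 3.91 ± 0.47 (SE, adjusted p = 1.31e-06), and Treg cells also exceeded Teff cells, with a mean of 91.6 ± 10.9 (SD, n = 3) against 11.3 ± 7.82 (SD, n = 3) (limma, adjusted p = 2.95e-05). The Hdac1 promoter peak averaged 3755 in naive, 4003 in Teff, 3498 in anergic and 3242 in Treg cells, and the Hdac3 promoter was lower in anergic than in Teff cells (log2 fold change -0.32 ± 0.10, SE, adjusted p = 0.0166). That Hdac3 difference missed the threshold without anergic replicate 2 (adjusted p = 0.0584), without Teff replicate 1 (adjusted p = 0.0554) and without Teff replicate 2 (adjusted p = 0.0595).

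Hdac4, a class IIa enzyme that shuttles between nucleus and cytoplasm, had the most peaks, 12, of which 2 were higher and 6 lower in anergic than in naive cells, 3 higher and 3 lower than in Teff, and 4 higher and 3 lower than in Treg cells. Without naive replicate 1 the count of 6 was 4. Its promoter peak was strong, 14282 ± 200 (SD, n = 2) in naive and 13565 ± 284 (SD, n = 3) in anergic cells. The intronic peak 60.9 kb from the start (chr1:92119097-92119766) opened in a graded way. The libraries measured 78 and 75.9 in naive, 224, 262 and 343 in Teff, 1106, 1085 and 873 in anergic and 532, 539 and 688 in Treg libraries. No 2 groups overlapped, in the order naive, Teff, Treg, anergic. Anergic cells exceeded Teff cells by 1.90 ± 0.17 (SE, adjusted p = 3.1e-08), Treg cells by 0.80 ± 0.17 (SE, adjusted p = 0.00112) and naive cells by 3.71 ± 0.19 (SE, adjusted p = 6.99e-13).

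Other intronic peaks of the same gene closed. At 111 kb (chr1:92069307-92069861), the signal was 699 and 408 in naive, 327, 339 and 278 in Teff, 84.6, 62.2 and 39 in anergic and 213, 221 and 154 in Treg libraries. The anergic libraries were lowest and overlapped no other group, and the log2 fold change was -2.39 ± 0.25 (SE, adjusted p = 2.43e-07) against Teff, -1.70 ± 0.25 (SE, adjusted p = 2.63e-05) against Treg and -3.16 ± 0.28 (SE, adjusted p = 4.37e-09) against naive cells. At 49.7 kb (chr1:92130429-92130818), the signal was 665 and 473 in naive, 96.9, 83.4 and 102 in Teff, 99.5, 68 and 24.9 in anergic and 230, 183 and 173 in Treg libraries. Naive libraries were highest, Treg libraries next, and those of Teff and anergic cells overlapped. Anergic cells differed from naive cells (log2 fold change -3.32 ± 0.37, SE, adjusted p = 1.19e-07) and from Treg cells (log2 fold change -1.79 ± 0.33, SE, adjusted p = 0.000268). The peak at 116 kb was lowest in Treg cells, 527 ± 19.3 (SD, n = 3) against 1323 ± 259 (SD, n = 3) in Teff cells (log2 fold change -1.31 ± 0.15, SE, adjusted p = 6.73e-07).

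Hdac7, a class IIa enzyme abundant in thymocytes, had 10 peaks, none higher and 3 lower in anergic than in naive cells. The intronic peak at 4.86 kb (chr15:97839547-97839739) was lowest in anergic cells. There the values were 160 and 122 in naive, 32.5, 42.1 and 56.7 in Teff, 29.8, 16.9 and 14.1 in anergic and 56.3, 126 and 128 in Treg libraries. The anergic libraries were below all others, and Treg libraries overlapped the naive ones. The log2 fold change was -2.27 ± 0.38 (SE, adjusted p = 9.98e-05) for anergic against Treg and -2.80 ± 0.43 (SE, adjusted p = 9.3e-06) for anergic against naive cells. The stronger peak at 6.24 kb differed instead in Teff cells, which were below anergic cells (1425 ± 83.2 (SD, n = 3) against 2333 ± 236 (SD, n = 3); log2 fold change 0.71 ± 0.11, SE, adjusted p = 2.69e-05). The Hdac7 promoter peak passed none of the 6 tests.

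Hdac11, the class IV enzyme, had a peak 2.99 kb upstream (chr6:91153589-91154066) that was highest in Teff cells. By library it measured 69.1 and 87.5 in naive, 571, 589 and 527 in Teff, 287, 181 and 225 in anergic and 310, 241 and 223 in Treg libraries. Teff libraries lay above all others, anergic and Treg libraries overlapped, and naive libraries were lowest. Teff exceeded naive cells by 2.84 ± 0.22 (SE, adjusted p = 8.96e-10), and anergic cells were below Teff (log2 fold change -1.30 ± 0.19, SE, adjusted p = 1.71e-05). The Hdac11 promoter peak followed at a smaller size, with Teff above naive cells by 1.01 ± 0.16 (SE, adjusted p = 3.61e-05). The peak 2.88 kb from Hdac10, which lies in an intron of Mapk12, was lower in anergic than in Teff cells (log2 fold change -1.12 ± 0.20, SE, adjusted p = 0.000157).

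The histone acetyltransferases had 24 peaks at 10 genes. Between anergic and Teff cells 6 were higher and 1 was lower (29.2%, against 32.8% of all peaks), and between anergic and naive cells 8 were higher and 3 lower (45.8%, against 50.5%). Their 11 promoter peaks included none that passed between anergic and Teff cells. Kat6b, which acetylates histone H3, carried 4 of the 6: all of its 4 distal peaks were higher in anergic cells than in Teff, in naive and in Treg cells, and the count against Treg cells was 3 without anergic replicate 2, anergic replicate 3, Treg replicate 1 or Treg replicate 2. Its promoter peak averaged 19333 ± 220 (SD, n = 2) in naive and 17255 ± 692 (SD, n = 3) in anergic cells.

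The Kat6b peak 7.48 kb into the gene (chr14:21507108-21507424) was high in anergic cells and low elsewhere. Its signal was 14.6 and 22.5 in naive, 42.2, 52.9 and 11.7 in Teff, 338, 387 and 333 in anergic and 56.3, 66 and 78.5 in Treg libraries. The 3 anergic libraries lay far above every other library. The log2 fold change was 3.51 ± 0.40 (SE, adjusted p = 5.95e-07) against Teff, 2.39 ± 0.40 (SE, adjusted p = 9.25e-05) against Treg and 4.21 ± 0.45 (SE, adjusted p = 5.67e-08) against naive cells. A peak 131 kb upstream, in an intron of Adk, averaged 140 ± 6.81 (SD, n = 3) in anergic and 20.1 ± 4.81 (SD, n = 3) in Teff cells (log2 fold change 2.78 ± 0.39, SE, adjusted p = 8.67e-06). The 2 other intronic peaks, at 23.7 and 26.1 kb, were higher in anergic than in Teff cells by 1.29 ± 0.24 (SE, adjusted p = 0.000252) and 1.09 ± 0.20 (SE, adjusted p = 0.000152).

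Kat2b (PCAF) had a peak in an intron 6.17 kb upstream of one of its start sites (chr17:53577843-53578076). It measured 26.8 and 17 in naive, 26.3, 17.3 and 23.3 in Teff, 154, 168 and 150 in anergic and 104, 164 and 137 in Treg libraries. Anergic and Treg libraries overlapped each other and lay above all naive and Teff libraries. Anergic cells exceeded Teff cells by 2.78 ± 0.31 (SE, adjusted p = 4.55e-07) and Treg cells exceeded Teff cells by 2.54 ± 0.31 (SE, adjusted p = 1.96e-06). Its peak at 3.43 kb was higher in anergic cells than in Teff cells, by 1.06 ± 0.13 (SE, adjusted p = 2.28e-06), and than in Treg cells, by 0.75 ± 0.13 (SE, adjusted p = 0.000191). Ep300 and Crebbp, the p300 and CBP coactivators, had promoter peaks that did not pass between anergic and Teff cells: the Ep300 one averaged 7225 in Teff and 7542 in anergic cells and the Crebbp one 4912 and 4228. A distal Ep300 peak 24 kb upstream was highest in naive cells, 208 ± 27.1 (SD, n = 2) against 50.1 ± 14.7 (SD, n = 3) in anergic cells (log2 fold change -2.07 ± 0.31, SE, adjusted p = 8.24e-06).

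In PRC2, the promoters of Ezh2, Eed and Suz12 did not pass between anergic and any other group, while 2 intronic Ezh2 peaks did in all 3 comparisons. The Ezh2 promoter peak (chr6:47594065-47595727, 5' UTR) averaged 4673 ± 229 (SD, n = 2) in naive, 4663 ± 192 (SD, n = 3) in Teff, 4815 ± 181 (SD, n = 3) in anergic and 4484 ± 516 (SD, n = 3) in Treg cells. The intronic peak 33.7 kb from the start site (chr6:47560838-47561857) separated all groups. The signal there was 60.1 and 66.6 in naive, 605, 448 and 487 in Teff, 769, 1005 and 871 in anergic and 176, 245 and 215 in Treg libraries. No 2 groups overlapped, in the order naive, Treg, Teff, anergic. Anergic cells exceeded naive cells by 3.77 ± 0.19 (SE, adjusted p = 6.34e-13), Treg cells by 2.06 ± 0.17 (SE, adjusted p = 2.29e-08) and Teff cells by 0.78 ± 0.17 (SE, adjusted p = 0.00121). Treg cells were below Teff cells (log2 fold change -1.27 ± 0.17, SE, adjusted p = 8.16e-06). The neighbour at 35 kb, printed above, showed the same order of means, 7.55, 48.1, 89.4 and 185, and anergic cells exceeded naive cells by 4.43 ± 0.36 (SE, adjusted p = 9.83e-10). Its difference from Teff cells, 1.05 ± 0.32 (SE, adjusted p = 0.015), missed the threshold without anergic replicate 2 (adjusted p = 0.0504), without anergic replicate 3 (adjusted p = 0.0896) and without Teff replicate 1 (adjusted p = 0.0742). Ezh1, the other catalytic subunit, had a promoter peak that was lower in Treg than in naive cells (log2 fold change -0.52 ± 0.12, SE, adjusted p = 0.000926), and with equal total reads that log2 fold change was -0.35. The Ezh1 promoter peak also passed as lower in anergic than in naive cells. That log2 fold change was -0.35 without naive replicate 1 and -0.37 without naive replicate 2.

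The lysine methyltransferases had 59 peaks at 19 genes, 10 higher and 5 lower in anergic than in Teff cells (25.4%, against 32.8% of all peaks), and 12 higher and 10 lower than in naive cells (37.3%, against 50.5%). Kmt2a (MLL1), which methylates histone H3 at K4, had 7 peaks, of which 3 intronic ones were higher in anergic than in naive and than in Teff cells. The peak at 12.4 kb (chr9:44868676-44869086) showed it most evenly. Its signal was 56.9 and 65 in naive, 192, 239 and 207 in Teff, 453, 467 and 449 in anergic and 159, 160 and 152 in Treg libraries. Anergic libraries were highest, Teff next, then Treg and naive, with no overlap. Anergic cells exceeded Teff cells by 1.10 ± 0.18 (SE, adjusted p = 4.44e-05), Treg cells by 1.54 ± 0.18 (SE, adjusted p = 1.27e-06) and naive cells by 2.89 ± 0.20 (SE, adjusted p = 6.47e-11). At 11.9 kb the difference between anergic and Teff cells rested on single libraries. It missed the threshold without anergic replicate 1, anergic replicate 3, Teff replicate 1 or Teff replicate 2 (limma, adjusted p = 0.0581 to 0.107). The peak at 7.42 kb averaged 269 ± 26.4 (SD, n = 3) in Treg and 345 ± 38.5 (SD, n = 3) in anergic cells, a difference that did not pass (log2 fold change 0.36 ± 0.19, SE, adjusted p = 0.159). The Kmt2a promoter peak averaged 5074 in naive, 4765 in Teff, 5011 in anergic and 5261 in Treg cells and passed none of the 6 tests.

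Dot1l, which methylates histone H3 at K79, had 7 peaks, 4 higher and none lower in anergic than in naive cells. The peak 3.61 kb upstream (chr10:80751219-80751964) rose in all antigen-experienced subsets. It measured 342 and 478 in naive, 695, 757 and 755 in Teff, 1083, 1247 and 1224 in anergic and 961, 913 and 965 in Treg libraries. Naive libraries were lowest and anergic libraries highest, with no overlap among groups. Anergic cells exceeded naive cells by 1.54 ± 0.15 (SE, adjusted p = 1.11e-08) and Teff cells by 0.69 ± 0.13 (SE, adjusted p = 0.000292). The intronic peak at 8.45 kb behaved differently and was highest in Teff cells, 232 ± 24 (SD, n = 3) against 82.6 ± 6.86 (SD, n = 3) in Treg cells (log2 fold change -1.48 ± 0.23, SE, adjusted p = 4.55e-05).

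Setd1b, an H3K4 methyltransferase, had 10 peaks, of which 4 were higher in anergic, 5 in Teff and 5 in Treg cells than in naive cells. Without naive replicate 1 these counts were 3, 3 and 3. Its promoter peak (chr5:123140777-123142712) was highest in anergic cells. By library the signal was 1090 and 1435 in naive, 1724, 1735 and 2048 in Teff, 2472, 2334 and 2661 in anergic and 1747, 1824 and 1794 in Treg libraries. The anergic libraries lay above all others, with a log2 fold change of 0.99 ± 0.13 (SE, adjusted p = 9.23e-07) against naive, 0.44 ± 0.11 (SE, adjusted p = 0.00416) against Teff and 0.47 ± 0.11 (SE, adjusted p = 0.00276) against Treg cells. With equal total reads the difference from Treg cells was 0.34. Setd4 had 5 peaks, all distal, with 3 lower in anergic, 4 in Teff and 3 in Treg than in naive cells. The Setd4 peak at 31.3 kb averaged 538 ± 23.7 (SD, n = 2) in naive and 167 ± 47.3 (SD, n = 3) in anergic cells (log2 fold change -1.73 ± 0.24, SE, adjusted p = 2.57e-06), while that at 59.9 kb was lowest in Teff cells, which differed from anergic cells by 1.32 ± 0.18 (SE, adjusted p = 6.97e-06). The Setd3 peak 80.8 kb past the start was lower in all antigen-experienced subsets, with a log2 fold change of -1.44 ± 0.29 (SE, adjusted p = 0.000251) between anergic and naive cells. The Setd7 peak 43.2 kb upstream was lower in anergic than in Teff cells (log2 fold change -1.50 ± 0.28, SE, adjusted p = 0.000199). Setd2, the H3K36 methyltransferase, had 1 peak, at its promoter, of 3521 in naive, 3259 in Teff, 3366 in anergic and 2809 in Treg cells. Kmt2d had 4 peaks, of which the one at 1.7 kb averaged 74.7 ± 12.2 (SD, n = 3) in anergic and 136 ± 19.4 (SD, n = 3) in Teff cells (log2 fold change -0.86 ± 0.24, SE, adjusted p = 0.00723).

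The lysine demethylases had 56 peaks at 16 genes, 8 higher and 6 lower in anergic than in Teff cells (25%, against 32.8% of all peaks), and 16 higher and 12 lower than in naive cells (50%, against 50.5%). Kdm1a (LSD1), which removes methyl groups from H3K4, had an intronic peak most open in anergic cells. The peak at 32.4 kb (chr4:136569908-136570838) spans 931 bases. The signal was 168 and 204 in naive, 361, 481 and 420 in Teff, 2555, 2783 and 1734 in anergic and 729, 664 and 641 in Treg libraries. Anergic libraries lay above all others, followed by Treg, Teff and naive libraries, with no overlap. The log2 fold change was 2.46 ± 0.16 (SE, adjusted p = 5.48e-10) against Teff, 1.77 ± 0.16 (SE, adjusted p = 6.48e-08) against Treg and 3.63 ± 0.18 (SE, adjusted p = 3.88e-13) against naive cells. The Kdm1a promoter peak averaged 1609 ± 180 (SD, n = 3) in anergic and 1575 ± 50.6 (SD, n = 3) in Teff cells.

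Kdm2b, an H3K36 demethylase that recruits Polycomb to CpG islands, had 8 peaks, 4 higher and 1 lower in anergic than in naive cells, the lower one with an adjusted p of 0.0832 without naive replicate 2. The intronic peak at 3.6 kb (chr5:122984475-122985329) was high in anergic and Treg cells. It measured 86.1 and 45.7 in naive, 164, 173 and 237 in Teff, 875, 758 and 804 in anergic and 528, 566 and 586 in Treg libraries. Groups did not overlap, in the order naive, Teff, Treg, anergic. The step from Treg to anergic cells passed as reported, but not with equal total reads (log2 fold change 0.40, limma, adjusted p = 0.148). It also missed the threshold with edgeR (log2 fold change 0.48, adjusted p = 0.0504). The same held without any single anergic or Treg library, or without Teff replicate 2. Anergic cells exceeded Teff cells by 2.10 ± 0.20 (SE, adjusted p = 6.03e-08) and Treg cells exceeded Teff cells by 1.56 ± 0.20 (SE, adjusted p = 3.54e-06). At 2.13 kb the anergic and Treg libraries overlapped and lay above those of Teff and naive cells, with anergic above Teff cells by 1.28 ± 0.22 (SE, adjusted p = 7.92e-05) and no called difference from Treg cells (log2 fold change 0.17 ± 0.22, SE, adjusted p = 0.571). The peak at an internal start site, 154 bases from it, was lower in Treg than in naive cells (log2 fold change -0.71 ± 0.12, SE, adjusted p = 6.58e-05).

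Kdm6b (JMJD3), which removes H3K27 methylation, showed 2 directions within 1 locus. The 2 peaks nearest to its start site were lower in anergic than in Treg cells. The log2 fold change was -1.94 ± 0.33 (SE, adjusted p = 0.000103) at the peak 361 bases into the gene and -1.16 ± 0.25 (SE, adjusted p = 0.00138) at the peak 65 bases upstream. The first measured 124 and 135 in naive, 46.4, 84.2 and 81.7 in Teff, 38.1, 43.2 and 26.2 in anergic and 104, 224 and 113 in Treg libraries. The anergic libraries were below all others. The second measured 342 and 394 in naive, 125, 211 and 333 in Teff, 235, 145 and 170 in anergic and 445, 417 and 349 in Treg libraries. There the anergic libraries were below naive and Treg libraries and overlapped those of Teff. A peak 56.6 kb upstream, in an intron of Dnah2, was highest in anergic cells, 219 ± 57.9 (SD, n = 3) against 49 ± 24.4 (SD, n = 3) in Treg cells (log2 fold change 2.25 ± 0.38, SE, adjusted p = 0.000103). The strongest Kdm6b peak, at 5.94 kb, averaged 12722 in naive, 15738 in Teff, 13870 in anergic and 13077 in Treg cells. Kdm6a (UTX), with the same substrate, had 5 peaks. Its intronic peaks at 14.9 and 25.8 kb rose in anergic against naive cells by 2.84 ± 0.38 (SE, adjusted p = 1.84e-06) and 3.33 ± 0.35 (SE, adjusted p = 5.02e-08), and against Teff cells by 1.36 ± 0.34 (SE, adjusted p = 0.00347) and 1.25 ± 0.31 (SE, adjusted p = 0.00332).

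Kdm7a, which acts on H3K9 and H3K27, had 9 peaks with opposite patterns. The peak 11.4 kb upstream, printed above, was open mainly in Teff cells. Its signal was 0.812 and 9.29 in naive, 221, 195 and 148 in Teff, 33.2, 29 and 20.8 in anergic and 29.3, 51.1 and 22.8 in Treg libraries. The Teff libraries lay above all others, and the naive libraries held 1 and 12 reads. The ratio of Teff to naive reads, after the authors' scaling of each library, was 38.4 (95% interval 22.3 to 72.5, exact conditional binomial, counting error only). Anergic cells were below Teff (log2 fold change -2.73 ± 0.52, SE, adjusted p = 0.000269). At 34.7 kb upstream (chr6:39240860-39242146), anergic cells were highest instead. The libraries measured 541 and 496 in naive, 840, 695 and 820 in Teff, 2139, 2192 and 1859 in anergic and 1223, 1205 and 1405 in Treg libraries. No 2 groups overlapped, and anergic cells exceeded Teff cells by 1.39 ± 0.12 (SE, adjusted p = 1.53e-08) and Treg cells by 0.69 ± 0.12 (SE, adjusted p = 0.000144). At 68.6 kb upstream the signal was highest in naive and lowest in anergic cells, 431 ± 55 (SD, n = 2) against 68.4 ± 11.5 (SD, n = 3) (log2 fold change -2.64 ± 0.27, SE, adjusted p = 3.35e-08). The peak at 77.2 kb upstream was open in Teff and anergic cells and low in Treg cells, 162 ± 58.9 (SD, n = 3), 119 ± 23.5 (SD, n = 3) and 34.4 ± 13.4 (SD, n = 3), with Treg below Teff cells (log2 fold change -2.20 ± 0.40, SE, adjusted p = 0.000198).

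Kdm3b, an H3K9 demethylase, had an intronic peak at 6.76 kb that was high in Teff and Treg cells. It measured 109 and 141 in naive, 473, 619 and 535 in Teff, 211, 234 and 169 in anergic and 398, 519 and 437 in Treg libraries. Teff and Treg libraries overlapped and lay above all anergic and naive libraries. Anergic cells were below Teff cells (log2 fold change -1.41 ± 0.18, SE, adjusted p = 2.62e-06) and below Treg cells (log2 fold change -1.14 ± 0.18, SE, adjusted p = 4.64e-05). The promoter peak of Kdm4d rose in all antigen-experienced subsets, by 0.78 ± 0.11 (SE, adjusted p = 2.65e-06) in anergic cells against naive cells. Kdm5b, an H3K4 demethylase, had a peak 3.48 kb upstream that averaged 2675 ± 34.5 (SD, n = 2) in naive and 2085 ± 94.9 (SD, n = 3) in Teff cells. Its promoter peak passed none of the 6 tests.

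**Figure D4:**
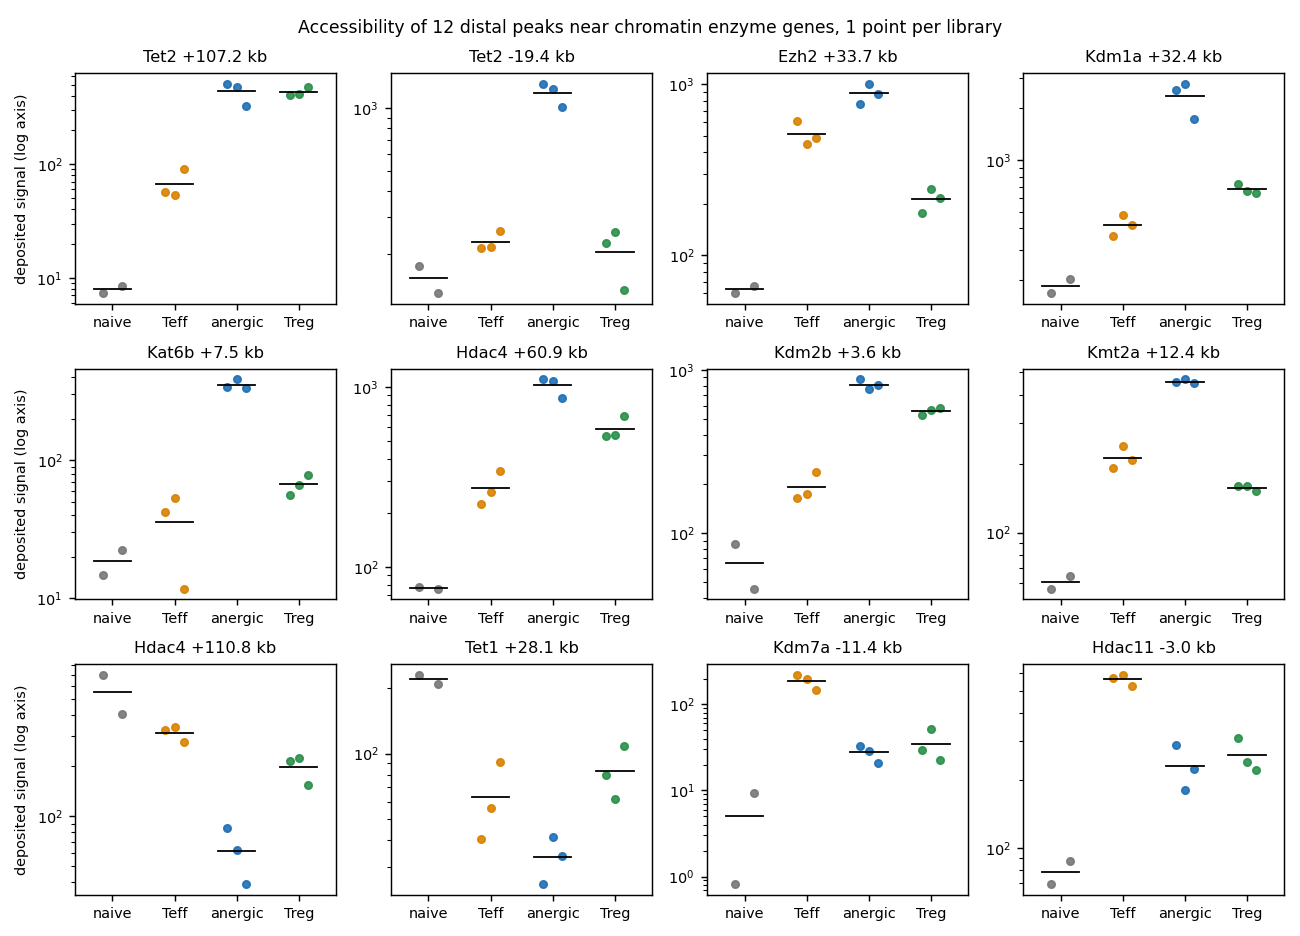
Deposited signal (log axis, a separate scale in each panel) at 12 distal peaks, with 1 point per library and a bar at the group mean for naive, Teff, anergic and Treg cells. The anergic libraries are highest at Kdm1a (1734 to 2783) and Kat6b (333 to 387), the Teff libraries at Kdm7a 11.4 kb upstream (148 to 221) and Hdac11, and the naive libraries at Tet1.

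By gene, 66 had a peak. Between anergic and Teff cells, 10 had peaks that passed only as higher, 8 only as lower and 11 in both directions, and 37 had none. Between anergic and naive cells the numbers were 16, 21, 9 and 20. Such counts depend on the number of peaks per gene, which was 1 at 19 genes. They were not made over all genes, so they show no trait of this set. Of the 17 genes with 5 or more peaks, Tet2, Kat6b, Kmt2a, Kat2b and Kdm6a had higher and no lower peaks in anergic cells against both naive and Teff cells. Hdac4, Tet3, Kdm7a, Kdm2b, Dnmt3a and Kdm6b had both directions against each of these groups. At 3 of these genes the reading against Teff cells rested on single libraries: no Kdm2b peak was lower without Teff replicate 2, no Dnmt3a peak was higher without Teff replicate 1 or anergic replicate 2, and no Kdm6b peak was lower without Teff replicate 2, Teff replicate 3 or anergic replicate 3. Against naive cells, no Kdm2b peak was lower without naive replicate 2.

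**Figure D5:**
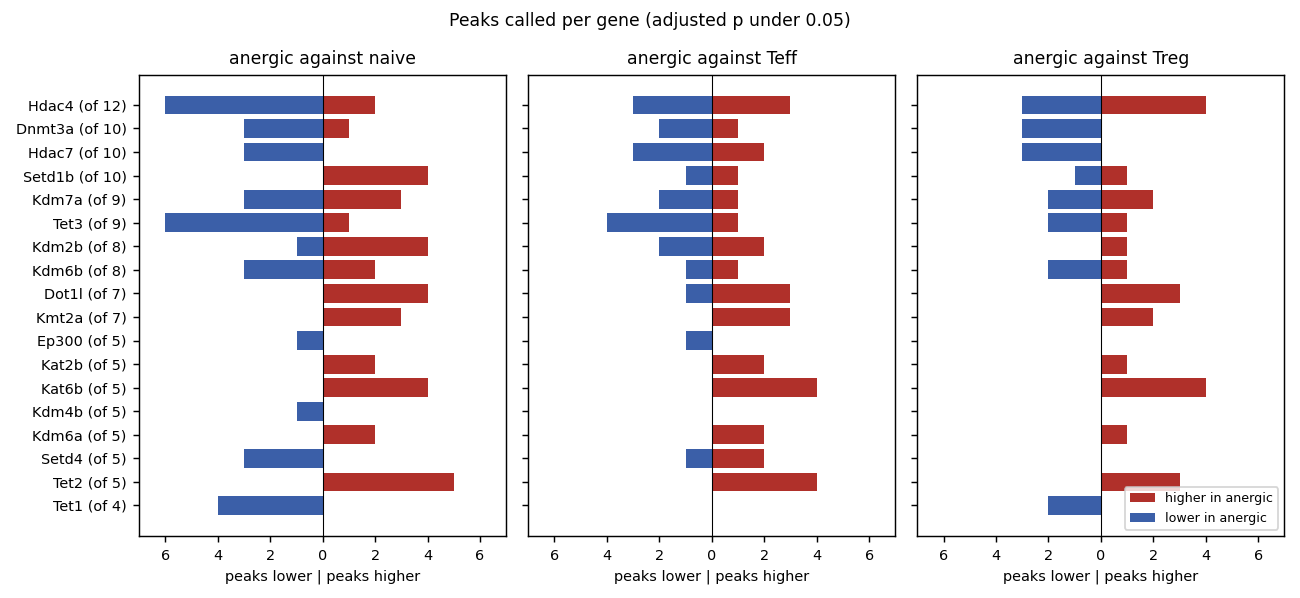
Number of peaks per gene with an adjusted p under 0.05, higher (right, red) or lower (left, blue) in anergic cells than in naive, Teff and Treg cells, for genes with 5 or more peaks and Tet1 (number of peaks in brackets). Tet2 and Kat6b have bars to the right only, Tet1 to the left only, and Hdac4 to both sides.

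The letters of factor-binding cores were counted in the distal members, split by direction of change. The window was the 300 bases around the centre, which reaches past the edges of the 72 distal members narrower than that, the Tet1 peak printed above among them. TGANTCA (AP-1) was found on either strand in this window in 28 of 148 distal members (18.9%), against 15.3% of all distal peaks. It was in 16 of the 46 distal members higher in anergic than in naive cells (34.8%), in 5 of the 40 lower ones (12.5%) and in 7 of the 62 that did not pass (11.3%). TGGAAA (NFAT) was in 15 of the 46 (32.6%), 3 of the 40 (7.5%) and 14 of the 62 (22.6%), against 25.4% of all distal peaks. The AP-1 split was much alike in the other subsets against naive cells. For Teff cells it was 13 of 41 higher (31.7%) and 4 of 30 lower distal members (13.3%). For Treg cells it was 13 of 42 (31%) and 4 of 30 (13.3%). Between Treg and Teff cells, AP-1 letters were in 7 of 25 higher (28%) and 5 of 17 lower distal members (29.4%). Between anergic and Teff cells, AP-1 letters were in 12 of 36 higher, 5 of 23 lower and 11 of 89 other distal members. NFAT letters were in 12 of 36, 0 of 23 and 20 of 89. For anergic against naive cells, the letters GGAAGT (ETS) were in 12 of 46 higher (26.1%), 16 of 40 lower (40%) and 7 of 62 other distal members (11.3%). Their share over all distal peaks was 29.2%. TGTGGT (RUNX) was in 20 of 46 (43.5%), 14 of 40 (35%) and 19 of 62 (30.6%), against 33.2% of all distal peaks. The shares over all distal peaks were not split by direction of change. CTTTGAT (TCF), GGGNGTGG (KLF) and AGGTGTGA (T-box) were in 6.08%, 18.9% and 2.7% of distal members, against 6.54%, 14.5% and 2.09% of all distal peaks. These are counts of letters, with no test, and a match is not a bound site.

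Among 62 further chromatin genes outside the symbol rule (MBD and Polycomb proteins, sirtuins, other methyltransferases and corepressors), 52 had 164 peaks. Of these, 13 were higher and 28 lower in anergic than in Teff cells, and 25 higher and 39 lower than in naive cells. These are 25% and 39% of the 164, below the 32.8% and 50.5% of all peaks. The largest change between anergic and Teff cells was at Smyd3, a SET-domain methyltransferase, 493 kb from the start site, with a log2 fold change of 3.90 ± 0.28 (SE, adjusted p = 1.17e-09). Tdg, the glycosylase that removes the bases TET enzymes produce, had a peak at 3.16 kb that rose by 2.08 ± 0.17 (SE, adjusted p = 9.83e-09) in the same comparison.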

How the data were processed

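ATAC-seq measured chromatin accessibility in 11 libraries of 4 sorted CD4 T cell subsets. Per the submitters' processing notes and the series text, the authors trimmed reads with Trimmomatic 0.38.1, aligned them to mm10 with Bowtie2 2.3.3.1, handled them with SAMtools 1.13 and called peaks per sample with Genrich 0.5 in its ATAC-seq mode, which adjusts for Tn5 insertion. PCR duplicates, mitochondrial reads and blacklisted regions were left out. DiffBind 2.10.0 gave 38509 consensus peaks, and deepTools 3.5.1.0.1 is also listed. The deposited values are signal per peak and library, on a linear scale. Each is a whole multiple of its library's smallest value (100% of values, within 0.01), so reads were recovered by division. How the authors set the scaling factor is not given in the sources used here.

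Peaks were assigned by their centre to the nearest start site of 45756 RefSeq transcripts. Log2(signal + 1) was tested with limma 3.58.1 (R 4.3.3, trended variance, all 11 libraries in 1 model) and Benjamini-Hochberg adjustment over 38493 peaks. The other 16 peaks, none of them a member, did not pass the filter on low values. The shallowest library held 14668425 reads in peaks, and intervals on read ratios cover counting error only. All p-values are two-sided. The procedure was tested on simulated data. Alternatives were edgeR 4.0.16 and DESeq2 1.42.0 on recovered reads, other pseudocounts (0.5 and 8), no filter, equal totals, sample weights, pairs of groups alone, a replicate block, members within 50 kb and each library left out.

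The members and lists were chosen with earlier results of these data known. Peaks were named by a rule: in each comparison the 6 higher and 6 lower non-overlapping members with the largest change, plus the promoter and the peak with the smallest adjusted p of selected genes. Other member peaks named, and the 5 sequences among those the rule allows, were chosen after their values were seen. The motifs named NF-kB and BATF-IRF were not searched. Gene positions and sequences come from RefSeq, GRCm38.p6.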

Additional observations from a re-analysis of the deposited data

How the results depend on the processing

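The number of members that passed was 66 to 77 under the other settings for anergic against Teff cells (69 as reported) and 54 to 70 with each library left out in turn. For anergic against naive cells it was 102 to 110 and 82 to 111, for anergic against Treg 56 to 71 and 42 to 62, for Treg against Teff 46 to 66 and 34 to 54, for Treg against naive 90 to 106 and 74 to 104, for Teff against naive 81 to 96 and 56 to 93, and for the test across all 4 groups 128 to 143 and 109 to 136. The 56 came without naive replicate 1; with 1 naive library left, that library is assumed to vary like the other groups. On recovered reads edgeR called 69, 108, 58, 46, 94 and 88 members in these 6 comparisons, in the order given. With sample weights, 37 members were lower in Treg than in Teff cells. Only members within 50 kb of a start site gave 58 for anergic against Teff and 91 for anergic against naive cells. Without the 4 peaks assigned to Dnmt3aos, an alternative chosen after seeing the data, these counts were 68 and 105. With the replicate block they were 72 and 103, and 64, 53, 102 and 81 for the next 4 comparisons and 134 across all groups. Same-numbered libraries did not deviate together in every pair (correlations from -0.114 to 0.155). Deviations were taken from group means of very few libraries, so these correlations cannot show whether same-numbered libraries share mice or a batch.

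Of 625 differences computed for the named peaks, 351 passed as reported. Across the other settings 63 of the recomputed values no longer passed and 88 newly passed, and with single libraries left out 276 and 51, with no called direction reversed. Depth limits the small peaks, where naive libraries held as little as 1 read.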
